A study of Homo sapiens with 30 samples.

Results

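Cells take up iron through a surface receptor, store it in ferritin and adjust both through a pair of RNA-binding regulators. Transcripts of TFRC, FTH1, FTL, NCOA4, ACO1 and IREB2, which are 6 of the 60664 genes in the count table, were matched by symbol and followed in both fractions of all groups. TFRC codes for transferrin receptor 1, the main entry route of iron. FTH1 and FTL code for the heavy and light chains of ferritin, the storage shell, and NCOA4 codes for the receptor that carries ferritin to the lysosome for iron release. ACO1 and IREB2 code for iron regulatory proteins 1 and 2. The set was chosen by its role and, with results of these data in view, by the measured level of TFRC in granules against cytosol, since TFRC has been described as a stress granule transcript and was lower there. That difference is therefore described here without a test.

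The libraries came from a pair of lines derived from Flp-In T-REx HEK293, an established human embryonic kidney line in which tetracycline switches on a transgene at a docking site. Both lines carry GFP-TIA1a, where TIA1 is a protein that binds RNA and gathers in stress granules. The transgene is wild type in one line (WT) and holds the Welander distal myopathy mutation in its partner (WDM), so every group below, untreated cells included, carries one of these transgenes. Cytosol RNA was sequenced from untreated cells, from cells given tetracycline, and from cells given tetracycline and then 0.5 mM sodium arsenite for 60 min, in both lines (18 libraries). The granule fraction was a high-speed pellet pulled down through the GFP tag, from cells given tetracycline with or without arsenite, in both lines (12 libraries). The series' design text describes this preparation for arsenite-treated cells, and the granule groups without arsenite are taken from the sample titles. Each of the 10 groups had 3 libraries. The transgene is a tagged, induced protein in a kidney line rather than in muscle, and whether each line is a single clone is not given in the sources used here. The labels do not say whether replicates were separate cultures, so p-values measure the spread between these libraries, which may be technical. As these are bulk libraries, a lower level in fewer cells and a lower level in every cell cannot be told apart.

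Library totals ran from 5906167 to 27419145 counts. TIA1 itself was listed at 0 to 0.0738 CPM (a count scaled by the total of its library), so its row could not check the labels. Cell line markers were only partly present. The epithelial genes KRT8, KRT18, KRT19, EPCAM and CDH1 summed to 315 to 570 CPM in cytosol. Of neuronal filament genes described in HEK293, NEFL ran from 44.6 to 196 CPM and INA from 7.83 to 25.4 CPM over all libraries. NEFM reached at most 0.483 CPM. Of kidney developmental genes, WT1 ran from 4.78 to 14.4 CPM, PAX2 from 0.892 to 20.0 CPM and SIX2 from 0.636 to 3.15 CPM. PAX8 reached at most 0.175 CPM. Of 3 markers of blood cells, HBB had no count in any library, PTPRC reached at most 0.251 CPM and HBA1 at most 1.95 CPM. Summed nuclear RNA (NEAT1, MALAT1, KCNQ1OT1 and TUG1) ran from 267 to 984 CPM in cytosol and from 2337 to 3697 CPM in granules.

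Iron regulatory proteins bind a short hairpin, the iron-responsive element, when iron is scarce. In the 5′ UTR of a ferritin mRNA this hairpin holds back translation, and in the 3′ UTR of TFRC mRNA a row of them protects the message from decay. The hairpin is recognised by a bulged C and a loop that opens with CAGTG. A search of the 20457 Ensembl canonical protein-coding transcripts of GENCODE release 44 (GRCh38), on the transcript strand only, looked for a C, any 5 bases, CAGTG and any base, with the 5 bases able to pair with those after the loop (G-T pairs allowed). Sites are shown because they are what ties the storage and uptake transcripts to their regulators, with the bulged C and the loop of 6 bases in capitals.
FTH1: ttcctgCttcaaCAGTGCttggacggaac
FTL: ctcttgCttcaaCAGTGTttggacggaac
TFRC site 1: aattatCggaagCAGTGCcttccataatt
TFRC site 2: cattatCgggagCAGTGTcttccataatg
TFRC site 3: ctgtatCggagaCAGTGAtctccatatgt
TFRC site 4: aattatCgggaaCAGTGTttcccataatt

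The FTH1 site lies in the 5′ UTR in exon 1, at chr11:61967574-61967602 on the minus strand, and the FTL site in the 5′ UTR in exon 1, at chr19:48965335-48965363 on the plus strand. The TFRC sites all lie in the 3′ UTR in exon 19 on the minus strand, at chr3:196050979-196051007, chr3:196050575-196050603, chr3:196050510-196050538 and chr3:196050463-196050491. Such a match is rare: 263 transcripts held one anywhere (1.286%), 20 in the 5′ UTR (0.098%) and 123 in the 3′ UTR (0.601%). TFRC was the 1 transcript with 3 or more in its 3′ UTR. NCOA4, ACO1 and IREB2 held none of this form, which says only that these letters are not in those transcripts. Hairpins with another loop or an unpaired base in the stem were not searched for, so TFRC may hold more than the sites shown. A match is a description of the sequence and not a measured site.

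In the deposited table TFRC (ENSG00000072274) spans chr3:196027183-196082096 on the minus strand, FTH1 (ENSG00000167996) chr11:61959718-61967634 on the minus strand and FTL (ENSG00000087086) chr19:48965309-48966879 on the plus strand. ACO1 (ENSG00000122729) spans chr9:32384603-32454769 on the plus strand, IREB2 (ENSG00000136381) chr15:78437431-78501453 on the plus strand and NCOA4 (ENSG00000266412) chr10:46005088-46030623 on the minus strand. No member shares exon sequence with another gene on its own strand. BEST1 lies opposite 63.2% of the exon length of FTH1, so FTH1 counts are uncertain if reads were counted without strand, which is not given in the sources used here. Ferritin genes have many processed copies: 25 rows named FTH1P held 0.804% of that family's counts, led by FTH1P20, FTH1P10 and FTH1P7. The 16 FTLP rows held 0.299% of theirs, led by FTLP3, FTLP12 and FTLP2, and the 4 NCOA4P rows held 0.0437%. Reads from FTH1, FTL and NCOA4 that fit a copy equally well may have been dropped or split, so their levels are uncertain to that extent.

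The level of the uptake receptor TFRC was lower in WDM than in WT cytosol in each of the 3 conditions, rose with tetracycline in both lines and fell with arsenite in both. In untreated cytosol TFRC stood at 402, 379 and 387 CPM in WT and at 258, 261 and 261 CPM in WDM. With tetracycline it stood at 561, 555 and 657 CPM in WT and at 369, 388 and 399 CPM in WDM. With arsenite it stood at 379, 375 and 420 CPM in WT and at 258, 370 and 267 CPM in WDM. In all 3 conditions the highest WDM library was below the lowest WT library, although the second arsenite-treated WDM library, at 370 CPM, came within a few CPM of WT.

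**Figure D1:**
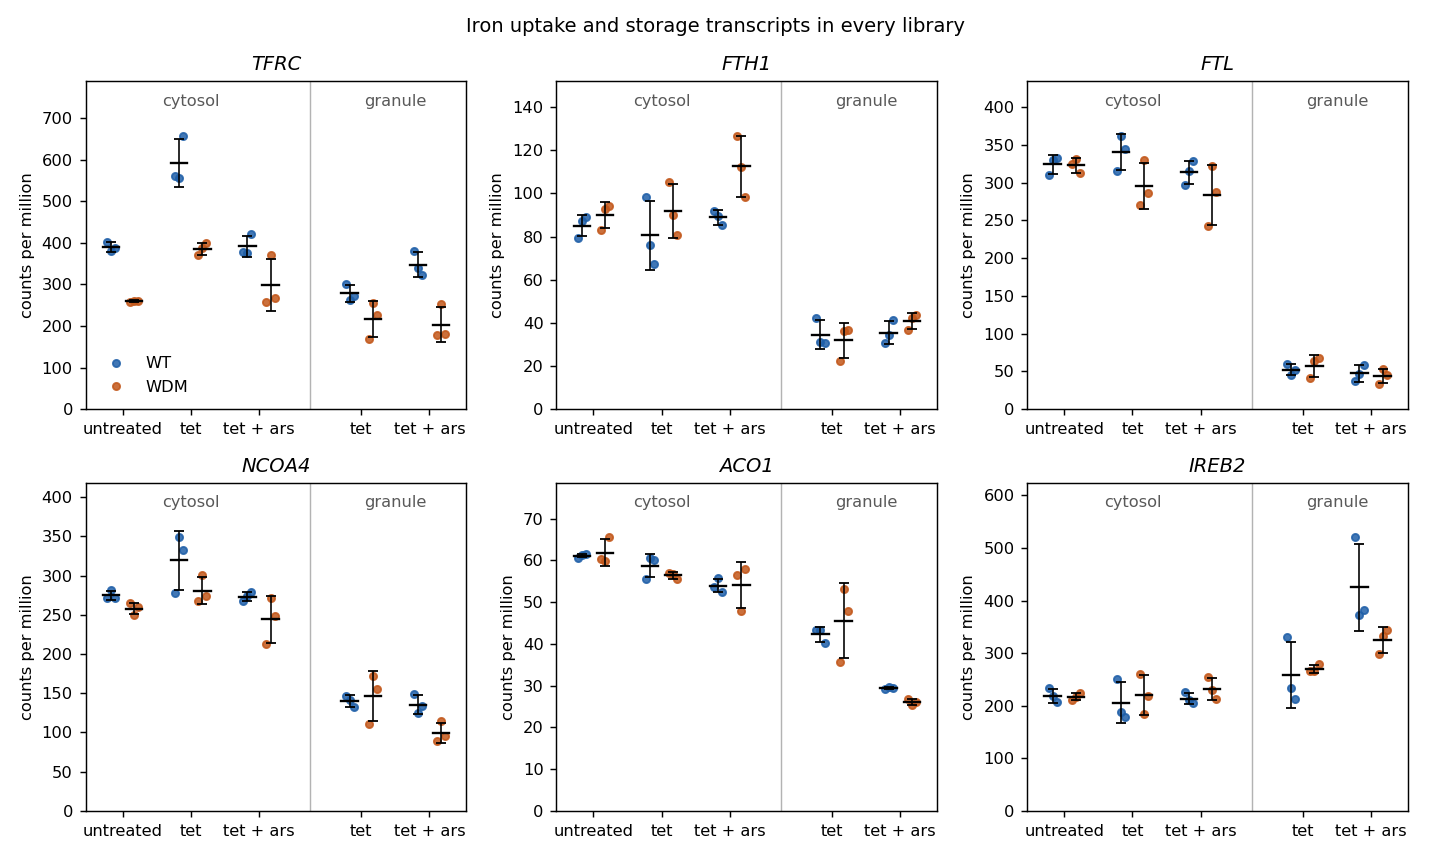
CPM of each iron gene (y axis, starting at 0) in the 3 libraries of each group, by treatment (x axis: untreated, tetracycline, tetracycline and arsenite) and fraction. Points are libraries, bars the mean and whiskers ± 1 SD. WT TFRC in tetracycline-treated cytosol (555 to 657 CPM) stands above every other group, and both ferritin chains are lower in every granule library than in every cytosol library.

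Between the lines, TFRC was lower in WDM by a log2 fold change of -0.62 (SE 0.12, adjusted p = 0.00132) untreated and -0.67 (SE 0.12, adjusted p = 0.000412) with tetracycline. With arsenite the value was -0.40 (SE 0.12, adjusted p = 0.0332). Adjusted p-values are from edgeR's quasi-likelihood test with Benjamini-Hochberg adjustment over all genes tested, and a gene is called under 0.05. TFRC was 1 of 6 members called in each of these comparisons, where 9.78%, 12.6% and 10.4% of all genes tested were called. The arsenite value was called in only 1 of 6 fits that left out a library, the one without the second WDM library, where it was -0.61. Without the first WDM library it was -0.28 (adjusted p = 0.18). The call was also lost when only the groups compared were fitted, at -0.41 (adjusted p = 0.058). Summed nuclear RNA was also higher in WDM cytosol when untreated, at 699 to 766 CPM against 406 to 482 CPM in WT, and the summed epithelial markers were lower in WDM without overlap in each condition. Those markers summed to 351 to 362 CPM against 484 to 517 CPM in WT untreated, 379 to 469 CPM against 485 to 570 CPM with tetracycline, and 315 to 380 CPM against 479 to 512 CPM with arsenite. The part of either marker set in the TFRC difference was not tested. Each genotype is held by its own line, so the mutation and any other difference between the lines cannot be told apart here. Whether genes beside TFRC on its chromosome also differed between the lines was not tested.

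Tetracycline, which switches on GFP-TIA1a, was accompanied by higher TFRC in both lines. The log2 fold change against untreated cells was 0.65 (SE 0.12, adjusted p = 0.00475) in WT and 0.59 (SE 0.12, adjusted p = 0.00492) in WDM. No treated library overlapped an untreated one in either line. As every group carries an inducible transgene, the drug itself and the induced protein cannot be told apart here. TFRC was again 1 of 6 members called, against 5.31% of genes in WT and 6.3% in WDM. Both comparisons share their tetracycline libraries with the arsenite comparisons below, and the untreated and treated libraries with the line comparisons above. The difference between the lines in this response was -0.05 (95% interval -0.40 to 0.29, adjusted p = 1.00). For this interaction edgeR called 0 of 6 members, with 0 at an unadjusted p under 0.05 and 0 by DESeq2, and 0.018% of genes.

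Arsenite was followed by lower TFRC in cytosol. Against tetracycline alone the log2 fold change was -0.73 (SE 0.12, adjusted p = 0.000196) in WT, where the groups did not overlap. In WDM it was -0.45 (SE 0.12, adjusted p = 0.00776), and there the second arsenite library, at 370 CPM, overlapped the tetracycline libraries. The WDM call was lost without the first arsenite library, where the value was -0.34 (adjusted p = 0.0505), and when only the groups compared were fitted. Arsenite changed many genes, with 29% of those tested called in WT cytosol and 28.8% in WDM cytosol, so a called member is not unusual here. The lines differed in this response by 0.28 (95% interval -0.07 to 0.62), which was not called. For that interaction edgeR called 0 of 6 members, with 0 at an unadjusted p under 0.05 and 0 by DESeq2, and 0% of genes.

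In the granule fraction the line difference in TFRC was wide with arsenite. The 3 WT libraries held 381, 339 and 322 CPM and the 3 WDM libraries 178, 253 and 180 CPM, a log2 fold change of -0.86 (SE 0.19, adjusted p = 0.00343). With tetracycline alone they held 301, 262 and 272 CPM against 169, 255 and 226 CPM, at -0.36 (SE 0.19, adjusted p = 0.326). No WDM library reached the lowest WT library in either treatment. TFRC was the 1 member called with arsenite, where 7.95% of genes were called. NCOA4 (-0.53, adjusted p = 0.0598), IREB2 (-0.49, adjusted p = 0.106) and ACO1 (-0.26, adjusted p = 0.340) were also lower in WDM there, without overlap. None of these was called, and the share of all genes without overlap was not counted. FTH1 and FTL overlapped. The member median with arsenite was -0.37, beside -0.004 for all genes. With tetracycline alone edgeR called 0 of 6 members, with 0 at an unadjusted p under 0.05 and 0 by DESeq2, where 5.55% of genes were called.

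Within the granule fraction, arsenite against tetracycline alone gave TFRC a log2 value of 0.34 (95% interval -0.04 to 0.72, adjusted p = 0.158) in WT and -0.16 (95% interval -0.54 to 0.22, adjusted p = 0.541) in WDM, and neither was called. The WT groups did not overlap and the WDM groups did. The lines differed in this response by -0.50 (95% interval -1.04 to 0.04, adjusted p = 0.426).

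The granule level of TFRC relative to cytosol, which chose the set, is given as a description. With tetracycline the log2 difference was -1.13 (SE 0.18) in WT and -0.83 (SE 0.18) in WDM. Mean granule CPM was then 47.1% of mean cytosol CPM in WT and 56.2% in WDM. With arsenite the log2 difference was -0.16 (SE 0.18) in WT and -0.62 (SE 0.18) in WDM, and the percentages were 88.7% and 68.2%. The log2 values use the scaling factors of the fit and the percentages do not. Both compare shares of separate libraries, not amounts of transcript. Granule and cytosol libraries overlapped in arsenite-treated WT and did not overlap in the other 3 settings. In these contrasts 75.7% and 70.5% of all genes were called in WT, without and with arsenite, and 71.1% and 72% in WDM, in either direction.

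**Figure D2:**
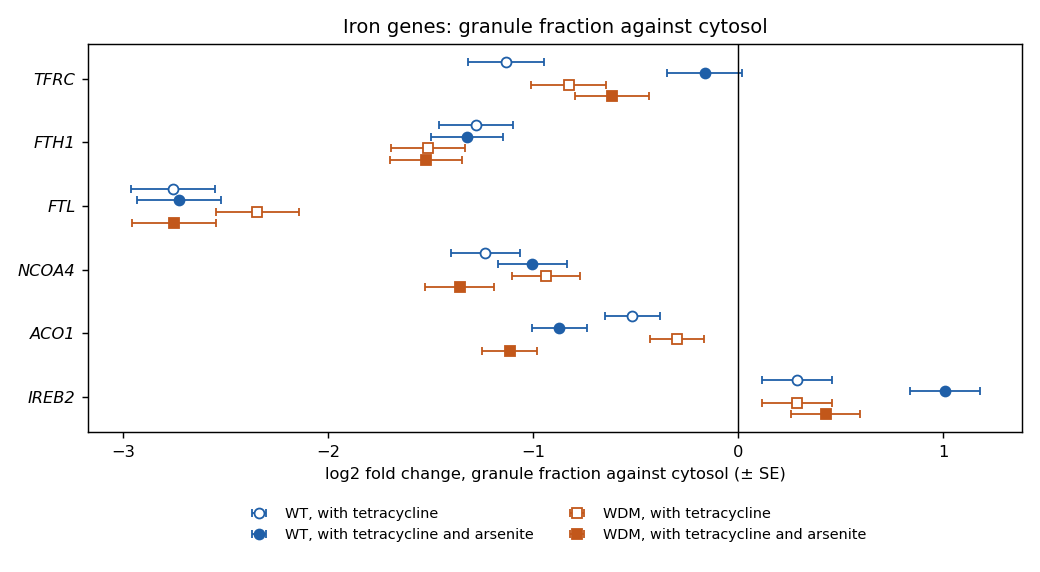
Log2 fold change of each iron gene in the granule fraction against cytosol (x axis), with ± 1 SE, for WT (circles) and WDM (squares), without arsenite (open) and with it (filled). TFRC in WT moves from -1.13 to -0.16 with arsenite, FTL stays below -2 in all 4 settings, and IREB2 is above 0 in all 4.

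The change in that granule-to-cytosol difference upon arsenite is a separate contrast, built from the same libraries. It is made of the differences that chose the set, so it too is given for TFRC as a description. In WT it was 0.97 (SE 0.26), where the median of all genes was -0.21, and it ran from 0.85 to 1.04 with 1 library left out. In WDM it was 0.21 (SE 0.26). Whether the lines differ in this change was not fitted as a contrast of its own.

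Across the 10 groups, mean TFRC was highest in WT cytosol with tetracycline, at 591 ± 57.4 CPM (SD, n = 3). WT cytosol with arsenite followed at 391 ± 25.2 CPM, then untreated WT cytosol at 389 ± 11.4 CPM and WDM cytosol with tetracycline at 385 ± 14.7 CPM. Those last 3 groups overlapped one another, whereas the first stood apart. WT granules with arsenite came next at 347 ± 30.6 CPM, WDM cytosol with arsenite at 298 ± 62.6 CPM and WT granules with tetracycline at 278 ± 20.7 CPM, each overlapping its neighbours in this order. Untreated WDM cytosol, at 260 ± 1.62 CPM, lay within the range of arsenite-treated WDM cytosol, below WT granules with tetracycline and apart from WDM granules, which were lowest, at 216 ± 43.8 CPM with tetracycline and 203 ± 42.9 CPM with arsenite.

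The ferritin chains FTH1 and FTL passed the test in none of the comparisons between lines or treatments. FTL in untreated cytosol held 310, 330 and 332 CPM in WT and 325, 331 and 312 CPM in WDM, and FTH1 held 79.4, 87.1 and 88.9 CPM and 82.9, 92.8 and 94.4 CPM. The lines overlapped for both chains. For the untreated line difference the 95% intervals were -0.26 to 0.18 for FTL and -0.19 to 0.29 for FTH1 on the log2 scale, which bounds how large a difference these libraries could hide. With arsenite, FTH1 in cytosol held 92.1, 89.7 and 85.2 CPM in WT and 127, 112 and 98.5 CPM in WDM, without overlap, at a log2 value of 0.33 (SE 0.11, adjusted p = 0.0733). That difference was called without the low-count filter, with the replicate block and when only the groups compared were fitted, with adjusted p from 0.0283 to 0.0927 over these and the other tool and scalings. With tetracycline FTL was at -0.26 between the lines (SE 0.11, adjusted p = 0.115), a difference called with the block (adjusted p = 0.0339), without the first WT library (-0.34) and without the second WDM library (-0.36).

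Against tetracycline alone, arsenite gave FTH1 log2 values of 0.01 and 0.20 in WT and WDM cytosol, and FTL values of -0.26 (adjusted p = 0.0724) and -0.14. In granules FTL stood at -0.12 in WT and -0.46 in WDM (adjusted p = 0.0825). The libraries with and without arsenite overlapped in each of these. Within tetracycline-treated WT cytosol the first library held 98.5 CPM of FTH1 against 76.2 and 67.4 CPM in the others, and it also held the most nuclear RNA, at 614 CPM against 274 and 267 CPM. That library's part in the FTH1 values was not tested beyond the fits without it.

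Both chains were far lower in granules than in cytosol, again as a description. FTL in WT with tetracycline held 59.6, 44.7 and 52.1 CPM in granules against 316, 362 and 344 CPM in cytosol. Its log2 differences over the 4 settings were -2.76, -2.73, -2.34 and -2.75 (WT without and with arsenite, then WDM likewise), with SE from 0.20 to 0.21. FTH1 differences were -1.28, -1.32, -1.51 and -1.52, with SE of 0.18. The 2 chains assemble into one shell, and their ratio was not the same in the 2 fractions. There were 2.56 to 4.35 FTL counts for each FTH1 count in the means of the 6 cytosol groups and 1.07 to 1.81 in the 4 granule groups, which did not overlap. The counting limits given above for both chains apply to this ratio.

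NCOA4, the ferritin receptor of lysosomal turnover, fell with arsenite in cytosol of both lines and in granules of WDM. In WT cytosol it held 277, 349 and 333 CPM with tetracycline and 268, 273 and 279 CPM with arsenite, a log2 fold change of -0.36 (SE 0.11, adjusted p = 0.0146). In WDM cytosol it held 267, 301 and 274 CPM and then 212, 272 and 249 CPM, at -0.29 (SE 0.11, adjusted p = 0.0446). The groups overlapped in both lines. Each of these cytosol calls was lost in 4 of 6 fits without 1 library, with values from -0.48 to -0.29 in WT and from -0.39 to -0.18 in WDM. Both were also lost when libraries were scaled by their totals alone, and when only the groups compared were fitted.

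In WDM granules NCOA4 held 111, 172 and 156 CPM with tetracycline and 89.7, 114 and 95.2 CPM with arsenite, at -0.62 (SE 0.18, adjusted p = 0.0074), with overlap between the first tetracycline and the second arsenite library. The call was lost without the second tetracycline library, where the value was -0.47. In WT granules the value was -0.03 (95% interval -0.39 to 0.34), and the difference between lines was -0.59 (SE 0.25, adjusted p = 0.331). NCOA4 in granules stood below cytosol in all 4 settings, at 43.9% and 49.5% of the mean cytosol CPM in WT, without and with arsenite, and at 52.0% and 40.8% in WDM.

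The transcripts of the 2 iron regulatory proteins, which share their targets, had values of opposite sign in granules upon arsenite. ACO1, which is also the cytosolic aconitase, fell in granules with arsenite in both lines. In WT granules it held 43.3, 43.3 and 40.2 CPM with tetracycline and 29.2, 29.6 and 29.4 CPM with arsenite, at -0.51 (SE 0.17, adjusted p = 0.0232). In WDM granules it held 35.6, 53.2 and 48 CPM and then 26.9, 25.3 and 26 CPM, at -0.88 (SE 0.17, adjusted p = 0.000214). The groups did not overlap in either line. The WDM call held in all 6 fits without 1 library. The WT call was lost in 4 of 6, with values from -0.58 to -0.45.

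IREB2, the regulator that is degraded when iron is plentiful, rose in WT granules with arsenite. It held 331, 233 and 213 CPM with tetracycline and 520, 372 and 383 CPM with arsenite, without overlap, at 0.75 (SE 0.19, adjusted p = 0.00377). The call was lost without the third tetracycline library (adjusted p = 0.0515), and the value ran from 0.52 without the first arsenite library to 0.95 without the first tetracycline library. In WDM granules it held 266, 266 and 279 CPM and then 298, 333 and 345 CPM, also without overlap, at 0.20 (SE 0.19, adjusted p = 0.417). The difference between lines was -0.54 (SE 0.26, adjusted p = 0.393). For that interaction edgeR called 0 of 6 members and 0% of genes, with IREB2 and NCOA4 (2 members) at an unadjusted p under 0.05 and 0 members by DESeq2.

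**Figure D3:**
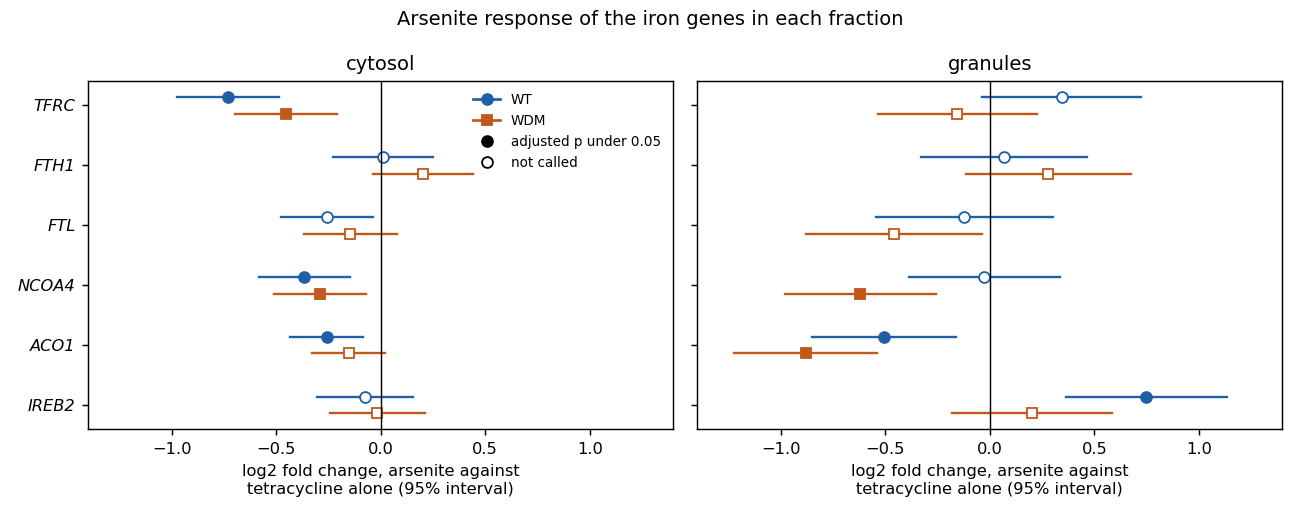
Log2 fold change upon arsenite against tetracycline alone (x axis) with its 95% interval, for WT (circles) and WDM (squares), in cytosol (left) and granules (right). Filled symbols have an adjusted p under 0.05. In cytosol these are TFRC and NCOA4 in both lines and ACO1 in WT. In granules they are ACO1 in both lines, NCOA4 in WDM and IREB2 in WT, at 0.75. A filled and an open symbol are not thereby shown to differ.

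In granules upon arsenite 2 of 6 members were called in WT (ACO1 and IREB2), where 30.6% of genes were called, and 2 of 6 in WDM (ACO1 and NCOA4), where 36.3% were. In cytosol 3 of 6 were called in WT (TFRC, NCOA4 and ACO1, the last at -0.26, adjusted p = 0.0258), where 29% of genes were called. In WDM cytosol 2 of 6 were called (TFRC and NCOA4), where 28.8% of genes were. The ACO1 cytosol call held without the first tetracycline library, at -0.33, and was lost in the other 5 of 6 fits without 1 library. Member medians were -0.26 in WT and -0.15 in WDM cytosol, beside -0.02 and 0.00 for all genes. IREB2 in cytosol did not pass the test in either line, at -0.08 (95% interval -0.30 to 0.15) and -0.02 (95% interval -0.24 to 0.21).

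The ratio of IREB2 to ACO1 counts shows both movements at once. It was 3.52 to 4.32 in the means of the 6 cytosol groups and 6.10 in granules of either line with tetracycline. With arsenite it was 14.5 ± 2.93 in WT granules and 12.5 ± 1.24 in WDM granules (SD, n = 3). Relative to cytosol, IREB2 in granules stood at 0.29 and 1.01 in WT and 0.29 and 0.43 in WDM, without and with arsenite, and ACO1 at -0.52 and -0.87 in WT and -0.30 and -1.12 in WDM, all as log2 differences. The arsenite change in this difference was called for IREB2 in WT, at 0.72 (SE 0.24, adjusted p = 0.0231), and for ACO1 in WDM, at -0.82 (SE 0.19, adjusted p = 0.00235). The IREB2 call was lost in 4 of 12 fits without 1 library, with values down to 0.50 without the first arsenite granule library, and the ACO1 call in none of 12. IREB2 and ACO1 were the members called in WT and in WDM, TFRC aside, where 31.4% and 24.2% of genes were called.

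Granule enrichment varied with transcript length, so the members were set beside genes of their own length. In WT with tetracycline the median granule-against-cytosol value climbed from -0.70 in decile 2 to 1.05 in decile 10, while the shortest genes, in decile 1, stood at 0.39. TFRC, ACO1 and IREB2 all fall in decile 9 of 10 of genes by longest annotated transcript, from 5769 to 7592 bases, where the median granule-against-cytosol value in WT was 0.43 with tetracycline and 0.56 with arsenite. IREB2 lay below that median with tetracycline (0.29) and above it with arsenite (1.01), while TFRC (-1.13 and -0.16) and ACO1 (-0.52 and -0.87) were below the lower quartile, which was -0.26 and -0.03. In WDM, IREB2 lay below the median of that decile both with tetracycline (0.29 against 0.37) and with arsenite (0.43 against 0.45). NCOA4 was below the lower quartile of its own decile as well. FTL is among the shortest, at 871 bases, and lay below the lower quartile there, and FTH1 lay between the quartiles of its decile. Across 18092 genes Spearman's rho between length and the granule value was 0.22 in WT with tetracycline and 0.35 with arsenite, given without a p because genes are not independent replicates.

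**Figure D4:**
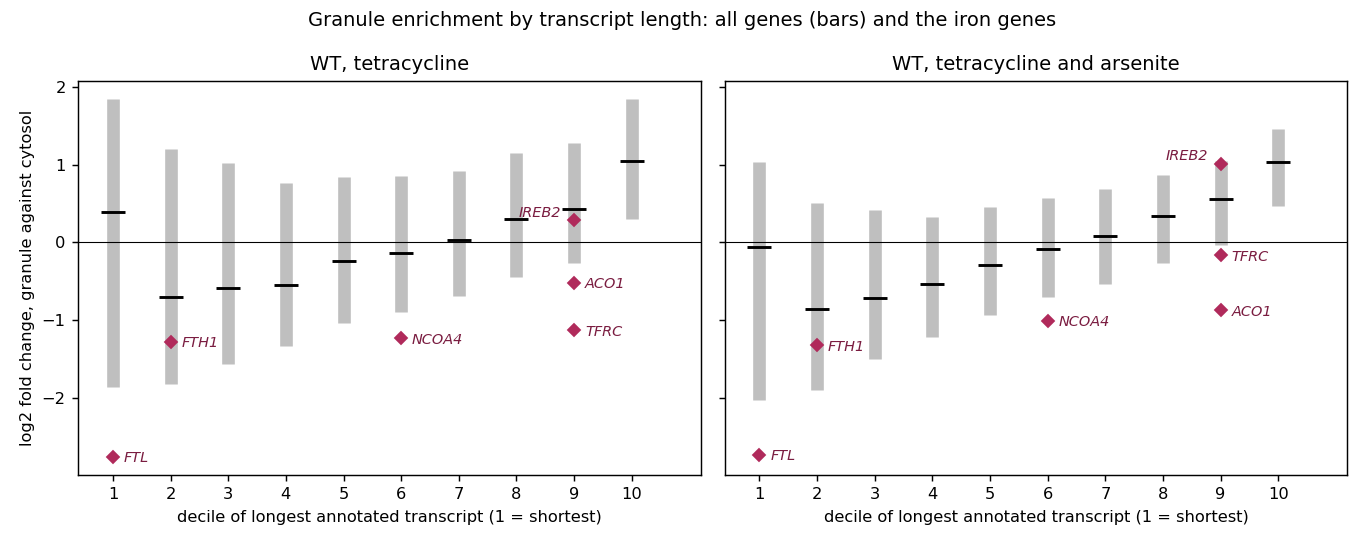
Granule-against-cytosol log2 fold change (y axis) by decile of longest annotated transcript (x axis, 1 shortest, 10 longest) in WT, without arsenite (left) and with it (right). Grey bars span the quartiles of all genes in a decile, black lines are medians and diamonds are the iron genes: TFRC at -1.13 and ACO1 at -0.52 lie below the bar of the decile they share with IREB2.

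TIA1 is known to bind U-rich stretches of RNA, so these were counted in the 3′ UTRs of the members. Runs of 5 or more T (U in the RNA), with 83.5% of 13053 genes having at least 1, were found in the 3′ UTR of the canonical transcript, on its own strand, at 1.88 per 1000 bases in TFRC, 2.15 in ACO1, 2.26 in FTH1, 2.66 in NCOA4, 4.23 in IREB2 and 6.94 in FTL, against a median of 3.39. The FTL value is 1 run in a 3′ UTR of 144 bases. The ATTTA motif of unstable messages occurs 12 times in TFRC, at 4.52 per 1000 bases against a median of 1.80, 8 times in ACO1, 7 in IREB2, 2 in NCOA4, 1 in FTH1 and 0 in FTL, and 75.6% of genes have at least 1.

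Levels of different genes can be compared only per length. By canonical transcript, untreated WT cytosol held 372 CPM per 1000 bases of FTL, 79.4 of NCOA4, 77.7 of TFRC, 70.8 of FTH1, 34.6 of IREB2 and 8.22 of ACO1. FTL was highest in all 6 cytosol groups and ACO1 lowest in all 10 groups, whether length was the canonical transcript, the longest transcript or the union of exons. The order of TFRC, NCOA4 and FTH1 depended on which length was used: TFRC measures 5012 bases as the canonical transcript and 15450 as the union of exons, and FTH1 1203 and 2004. The counting limits given above for FTH1, FTL and NCOA4 apply to these levels as well.

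The genes whose means over the 10 groups were most like each member, among 12406 genes, were found by Pearson's r on log2 CPM, as a description. For TFRC they were TNFRSF10D (r = 0.970), PRSS23 (0.941) and HPSE (0.938), and TNFRSF10D kept 0.960 once the mean of each fraction was removed. For IREB2 they were ZNF623 (0.984), USP9X (0.984) and ROCK2 (0.979), and for ACO1 SNX7 (0.996), TTC8 (0.995) and CEPT1 (0.994). DXO (0.994) led for FTH1, SNRPB (0.9996) for FTL and AAGAB (0.995) for NCOA4. The points share libraries and depth. With the mean of each fraction removed, r was 0.988 for ACO1 and SNX7, 0.973 for FTL and SNRPB, 0.972 for NCOA4 and AAGAB and 0.945 for IREB2 and ZNF623, and dropped to 0.690 for FTH1 and DXO.

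A list of 36 other genes of iron handling was followed alongside, of which 28 passed the low-count filter in cytosol and 30 in granules. In arsenite-treated cytosol 9 of 28 were called in WT, 2 higher and 7 lower, and 12 of 28 in WDM, 3 higher and 9 lower, which is 32.1% and 42.9% of those tested beside 29% and 28.8% of all genes. Several importers fell in both lines, as TFRC did: SLC39A14, a zinc and iron transporter, at -0.59 in WT and -0.51 in WDM, SLC11A2, the divalent metal transporter, at -0.50 and -0.43, and SLC39A8 at -0.53 and -0.46. CDC14A, another transcript with an iron-responsive element, rose by 0.54 and 0.42. GLRX5 and FECH, of iron-sulphur cluster and haem synthesis, fell by 0.36 and 0.30 in WT and by 0.26 and 0.25 in WDM, and with library size alone 3 of these 4 calls were lost, GLRX5 in WT being kept. CUL1 and BACH1 rose in WDM by 0.23 and 0.24. Both calls were lost without the low-count filter and when only the groups compared were fitted. The BACH1 call was also lost in 3 of 6 fits without 1 library, with 0.16 without the second arsenite library.

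In granules SLC39A14 went the other way from its cytosol value upon arsenite. It rose by 1.15 (SE 0.17, adjusted p = 1.99e-05) in WT granules, from 131 ± 13.0 to 286 ± 14.0 CPM, and by 0.77 in WDM granules. Its granule-against-cytosol value changed by 1.63 (adjusted p = 3.66e-06) in WT and 1.19 (adjusted p = 0.000175) in WDM. Altogether 9 of 30 list genes (30.0%, beside 30.6% of all genes) were called in WT granules, 5 higher and 4 lower, among them FECH (0.78), SLC40A1 (0.98), HMOX1 (0.94) and PCBP1 (0.67). In WDM granules 10 of 30 (33.3%, beside 36.3% of all genes) were called, 6 higher and 4 lower, led by HAMP at 3.03, which stayed under 2 CPM in every library, then FBXL5 (-0.79), PCBP1 (0.94) and HMOX1 (0.81). FBXL5 is the iron sensor that marks IREB2 protein for degradation.

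Between the lines CDC14A was higher in WDM cytosol in all 3 conditions, by 1.10, 1.46 and 1.34 (untreated, tetracycline, arsenite), and in WDM granules by 0.96 and 0.84. SLC39A14 was lower in WDM cytosol by a log2 value of -0.47, -0.62 and -0.53, and SLC25A37, the mitochondrial iron importer, by -0.27, -0.30 and -0.48. The SLC25A37 calls untreated and with tetracycline were lost with library size alone and without the low-count filter. Whether genes beside SLC39A14 and SLC25A37 on their chromosomes also differed between the lines was not tested, nor was a shared reason for these values. Other calls were SLC11A2 (0.29) and HMOX1 (-0.61) untreated, FBXL5 (0.30) with tetracycline and STEAP3 (-0.35) with arsenite in cytosol, and SLC25A37 (-0.59, tetracycline) and SLC39A14 (-0.66, arsenite) in granules. When only the groups compared were fitted, the FBXL5 and SLC25A37 calls in tetracycline-treated cytosol were lost. Calls of the list between lines numbered 5, 4 and 4 of 28 in cytosol (17.9%, 14.3% and 14.3%, beside 9.78%, 12.6% and 10.4% of all genes) and 2 and 2 of 30 in granules (6.67% in each, beside 5.55% and 7.95%). With tetracycline 1 list gene was called in WT cytosol, SLC39A14 at 0.34 (lost without any 1 of the untreated libraries), and 2 in WDM, NFS1 at -0.63 and HMOX1 at 0.86. The arsenite change in granule enrichment was called for 8 of 30 in WT and 5 of 30 in WDM (26.7% and 16.7%, beside 31.4% and 24.2% of all genes). Beside SLC39A14 these included CDC14A (-0.81 and -0.78) and FECH (0.97 and 0.47) in both lines, SLC11A2 (0.61) and SLC40A1 (0.98) in WT, and FBXL5 (-0.73) and STEAP3 (0.60) in WDM. Between the lines, granule enrichment with tetracycline was called for no iron uptake and storage gene by edgeR, TFRC aside. Of these, 0 had an unadjusted p under 0.05 and 0 were called by DESeq2, where edgeR called 0.00551% of genes. The intervals were wide, as for FTL at 0.41 (95% interval -0.15 to 0.97). For TFRC, whose granule values chose the set, the difference is a description only, at 0.31 (SE 0.26).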

How the data were processed

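RNA was sequenced from 30 libraries (10 groups of 3) as stranded total RNA after rRNA removal, per the labels' protocols. The values are raw counts of reads per gene in 1 table as deposited, with no pooling of libraries. Trimmomatic, STAR, Picard, featureCounts and GRCh38 are named in the submitters' processing notes, without roles, versions or strand setting. Groups and replicate numbers were taken from sample titles.

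Counts were tested with edgeR 4.0.16 (R 4.3.3): filterByExpr (minimum count 10, minimum total 15), TMM factors, a group-means model, the robust quasi-likelihood test, and Benjamini-Hochberg adjustment over all genes tested, called under 0.05. The fits held 18 cytosol libraries (16670 genes), 12 granule libraries (18366 genes), and the 24 tetracycline-treated libraries of both fractions (18141 genes). SE is the absolute log2 fold change divided by the square root of F. There were 21 comparisons, 15 between groups and 6 interactions. The script was tested on simulated counts. Totals per library set the counting precision. Chi-square per degree of freedom between replicates of the same group, from 1.63 to 40.7, showed no library deposited more than once within a group. Levels are CPM of the library total, mean ± SD. Of the gene identifiers, 60463 were found in GENCODE release 44, all on the same chromosome, so coordinates are GRCh38.

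The named genes are the 6 members, called genes of the iron list (at most 6 a comparison, by smallest p), up to 3 processed copies by total count, and the 3 genes most alike each member with a mean of at least 5 CPM in a group. Some genes of the iron list that this rule names are not reported here. Members and lists were chosen with earlier results of these data known. Settings varied one at a time were the scaling (RLE factors, or library size alone), the low-count filter (none), a replicate block, a fit of just the groups compared, the tool (DESeq2 1.42.0) and the omission of each library. A canonical-transcript length was added after seeing the data. Tables and figures used Python 3.11.15, numpy 2.4.6, pandas 2.3.3 and matplotlib 3.10.9.

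Replicate numbers were checked for pairing by correlating deviations from group means. In 2 of the 15 pairs of groups every same-number correlation was above 0.1: arsenite against tetracycline in WDM granules (0.108 to 0.464), and granules against cytosol in arsenite-treated WDM (0.311 to 0.568). The labels do not say that a number marks a shared culture or day.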

Additional observations from a re-analysis of the deposited data

How the results depend on the processing

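No called value changed sign. Of 1728 member values compared, 77 changed sign, all called in neither fit. Counts of called members (of 6) moved as follows, and the cause was not tested. With library size alone, arsenite in cytosol gave 1 in WT and 1 in WDM, in place of 3 and 2; that scaling moved the median of all genes in the WT comparison by 0.13 (log2). Fitting only the groups compared gave 1 and 0 there, and 2 in place of 1 between lines in untreated cytosol and in arsenite-treated granules. Between lines in arsenite-treated cytosol that fit kept the count at 1, with FTH1 called in place of TFRC. Without the low-count filter, arsenite-treated cytosol gave 2 between lines in place of 1. Counts for the arsenite change of granule enrichment are not given, because they would include TFRC, which is only described there. Leaving out each library in turn gave 1 to 2 for tetracycline in WT, 1 to 3 between lines with tetracycline in cytosol and 0 to 1 with arsenite, 1 to 4 for arsenite in WT cytosol and 0 to 2 in WDM cytosol, 1 to 2 in WT granules and 1 to 3 in WDM granules, and 1 to 2 between lines in arsenite-treated granules. TFRC in granules against cytosol then ran from -1.23 to -1.04 and -0.28 to -0.11 in WT, and from -0.98 to -0.64 and -0.84 to -0.40 in WDM, without and with arsenite.

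With the replicate number as a block, 2 members in place of 1 were called between lines in cytosol with tetracycline and with arsenite, where same-number pairing did not hold (correlations from -0.07 to 0.36 and from -0.08 to 0.11). The block moved no other count of members by over 1.5 times, including in the pairs of groups whose numbers did correlate.

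Called genes of the iron list moved too. Fitting only the groups compared gave 10 in place of 5 between lines untreated, 2 in place of 4 with tetracycline, 0 in place of 1 for tetracycline in WT, and 5 in place of 9 (WT) and 4 in place of 12 (WDM) for arsenite in cytosol. The WDM count was 7 with library size alone and 7 without the filter, which gave 5 in place of 9 in WT granules. With a library left out, 117 single-gene values lost their call and 399 kept it. Precision is limited by 3 libraries a group, and granule libraries varied more (biological coefficient of variation 0.161 against 0.103 in cytosol).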
